A study of Rattus norvegicus with 12 samples.

Results

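The genes described here make cholesterol and fatty acids or govern and move these lipids in the cell. The 39 genes comprise 18 genes of sterol synthesis, 10 of fatty acid synthesis and 11 regulators and transporters of the SREBP and LXR pathways. They were chosen by name and known role. No measured value was in the rule, but earlier results of these data were known when the genes were chosen. A gene was measured where at least 1 probe set of the array carried its symbol alone. This held for 37 of the 39, among 14217 genes in all, and Hmgcs1 and Npc1 were not measured here.

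RNA was compared between A16 and Colony cells, both of F111, a line of Fischer rat fibroblasts with no added transgene or drug named in the labels. A16 cells were kept adherent for 16 h and served as controls. Colony cells were NA16 cells, which had been held in suspension for 16 h, that were then grown in soft agar for 7 days. After release from the agar the colonies were given a short time on a dish to attach before RNA was taken. The groups thus differ in detachment, in selection of surviving cells, in time and in growth support. The paper also reports that a chromosome translocation and other chromosomal changes were more frequent in colony cells than in A16 cells. These differences cannot be told apart, and the part of chromosomal changes in the RNA levels was not tested. Each group had arrays of biological replicates 1 and 2 and of a technical replicate 2, and values are given in the order biological replicate 1, technical replicate 2, biological replicate 2. The technical array was averaged with biological replicate 1, so that n = 2 cultures per group. The labels do not say how far the cultures were separate, so the p-values measure only the spread between them. For Colony biological replicate 2, 1 label field names tumour cells and the others colony cells, and it was kept as Colony.

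Cholesterol is built from acetyl-CoA through mevalonate, isoprenoid diphosphates, squalene and lanosterol, while the same acetyl-CoA feeds the fatty acid chain, which is then elongated and desaturated. When membrane sterol is low, the chaperone Scap carries the SREBP proteins, encoded by Srebf1 and Srebf2, from the endoplasmic reticulum to the Golgi, where they are cut into transcription factors that switch on both routes. Insig proteins hold them back when sterol is plentiful, and the LXR receptors, which sense oxidised sterols, drive sterol disposal. In a fibroblast this synthesis chiefly serves membranes.

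The promoters of 3 called enzymes from different stretches of the 2 routes, and of Insig1, a textbook SREBP target that was not called, are shown so that called and uncalled genes of one pathway can be set side by side. Each is the 250 bases before the RefSeq transcription start in GRCr8, read 5′ to 3′ on the gene's strand, and capitals mark CCAAT or its complement ATTGG, the box bound by NF-Y, a factor known to act beside SREBP. Idi1 lies at chr17:66547525-66547774 on the minus strand, Tm7sf2 at chr1:212789542-212789791 on the minus strand, Fads1 at chr1:216252442-216252691 on the plus strand and Insig1 at chr4:8057770-8058019 on the minus strand.
Idi1: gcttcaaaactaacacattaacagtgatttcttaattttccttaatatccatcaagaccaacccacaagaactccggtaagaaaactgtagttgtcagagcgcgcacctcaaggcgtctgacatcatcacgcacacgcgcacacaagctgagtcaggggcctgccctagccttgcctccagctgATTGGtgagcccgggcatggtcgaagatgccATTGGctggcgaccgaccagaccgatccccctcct
Tm7sf2: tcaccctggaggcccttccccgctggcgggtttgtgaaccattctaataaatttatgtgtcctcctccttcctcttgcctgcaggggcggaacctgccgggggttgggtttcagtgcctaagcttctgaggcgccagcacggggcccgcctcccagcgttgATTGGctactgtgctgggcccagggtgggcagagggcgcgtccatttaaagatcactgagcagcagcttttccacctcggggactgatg
Fads1: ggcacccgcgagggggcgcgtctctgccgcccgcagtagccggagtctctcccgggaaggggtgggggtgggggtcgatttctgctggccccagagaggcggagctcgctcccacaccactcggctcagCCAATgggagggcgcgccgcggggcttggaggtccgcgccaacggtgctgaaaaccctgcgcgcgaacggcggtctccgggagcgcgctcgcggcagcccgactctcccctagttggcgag
Insig1: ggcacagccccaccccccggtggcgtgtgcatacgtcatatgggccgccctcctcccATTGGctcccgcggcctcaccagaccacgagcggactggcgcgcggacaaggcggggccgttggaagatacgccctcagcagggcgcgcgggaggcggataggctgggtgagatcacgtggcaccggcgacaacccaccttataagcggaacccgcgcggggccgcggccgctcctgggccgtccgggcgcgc
The Idi1 window holds 2 such boxes and the other windows 1 each. RefSeq promoters were found for 32 of the 39 genes, as 33 windows, with none for Pmvk, Fdft1, Sqle, Stard4, Acaca, Fasn and Elovl6. On either strand, CCAAT stood in 12 of 15 sterol, 5 of 7 fatty acid and 7 of 11 regulator windows, against 34% of all 33469 promoter windows and 34.6% of the 13242 windows of genes on the array. The GC box GGGCGG stood in 13 of 15, 4 of 7 and 8 of 11 windows, against 30.5% of all and 52.3% of array genes. The E-box CACGTG stood in 1 of 15, 1 of 7 and 2 of 11, against 5.59% and 7.57%. The sterol regulatory element spelled as TCACNCCAC was in no member window and in 0.974% of all, which says only that these letters are absent from these windows. Each motif was counted by itself, and matches of different motifs could overlap. The called genes and the uncalled gene shown thus all hold a CCAAT box. Of the called genes not shown, Hsd17b7 and Acss2 hold it as well. Acat2 and Dhcr7, also called, hold GC boxes but no CCAAT box, and Scd, which was called too, holds none of the 4 motifs.

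Depth here means signal above the dimmest probe sets. The median RMA intensity, a linear brightness after the authors' normalisation, ran from 97.6 to 101 over the arrays. The SD of log2 differences over probe sets was 0.174 and 0.225 between the technical array and biological replicate 1 of its group, 0.24 to 0.33 between the other arrays of a group and 0.67 to 0.76 between groups. In all, 1242 probe sets were called higher and 1803 lower in Colony, where a call needed an adjusted p under 0.05 in limma and a fold over 2.

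Each gene was read from its brightest probe set. Of the 17 measured sterol genes 7, and of the 10 fatty acid genes 3, were called higher in Colony than in A16. Of the 10 measured regulators and transporters none was called. Of the 37 measured genes, 10 were called higher and 0 lower, whereas 4.36% of all genes were called higher and 4.75% lower. The all-gene shares here and below include dim genes, whereas every measured member but Nr1h3 was brighter than the median probe set. An adjusted p under 0.05 at any fold was reached upward by 22 genes and downward by 0, against 12.9% and 10.8% of all genes. Every Colony array lay above every A16 array for 27 genes and below for 2, against 26.7% and 20.9% of all genes, and the arrays of the remaining 8 overlapped. The median log2 fold change of the 37 was 0.62, a 1.54-fold difference, beside 0.05 for all genes. The called genes were Acat2, Pmvk, Idi1, Sqle, Tm7sf2, Hsd17b7 and Dhcr7 of sterol synthesis and Acss2, Scd and Fads1 of the fatty acid route. Left without Colony biological replicate 2, the array with the tumour label, 12 members were called higher and 0 lower. With a test of each probe set by itself, without the shared variance of limma, 0 members were called after adjustment, and 10 higher and 0 lower passed at an unadjusted p under 0.05.

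**Figure D1:**
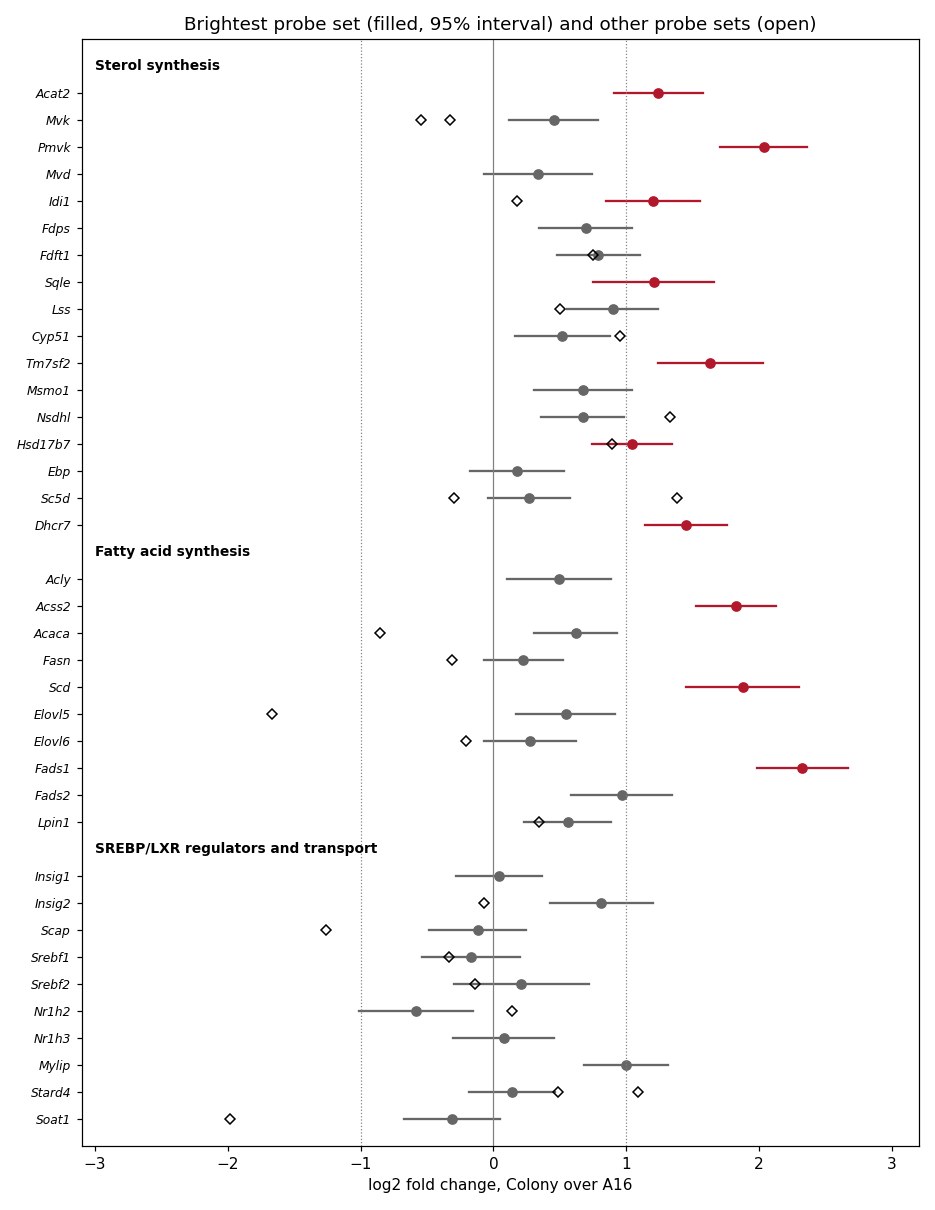
Log2 fold change of Colony over A16 for each measured gene, by list. Filled points are the brightest probe set with its 95% interval from limma (red, called; grey, not called), open diamonds are the other probe sets of the gene, and dotted lines mark a 2-fold difference. All 10 called genes lie right of the upper dotted line, and the 10 regulators lie on both sides of 0, and the open points of several genes, among them Elovl5, Mvk and Acaca, lie on the other side of 0 from their filled point.

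Of the 17 measured genes of sterol synthesis, 7 were called higher, 0 lower and 10 not called, and 13 had an adjusted p under 0.05. By the brightest probe set all 17 had a log2 fold change above 0, with a median of 0.79 (1.73-fold) and a range of 0.18 to 2.03. The brightest probe set was picked on the 6 arrays of both groups, so these signs depend on that choice. For Mvk, another probe set was as bright in A16 (mean log2 of 8.59 for each) but stood at -0.54. Averaged over all probe sets of a gene the median was 0.73, and Mvk then stood at -0.14. The 6 measured genes of the mevalonate and isoprenoid steps had a median of 0.95 with 3 called, and the 11 of the squalene and sterol steps a median of 0.79 with 4 called.

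Of the first steps, Acat2, the cytosolic enzyme that joins acetyl-CoA units, read 1365, 1238 and 1368 in A16 and 2726, 3104 and 3422 in Colony. Pmvk, which adds the second phosphate to mevalonate, read 383, 366 and 367 in A16 and 1656, 1614 and 1411 in Colony. Idi1, the isomerase that makes the reactive isoprenoid unit, read 1789, 1846 and 1792 in A16 and 3690.1, 3804 and 4595 in Colony. For each of these genes the lowest Colony array stood well above the highest A16 array. The log2 fold change was 1.24 ± 0.14 (SE, n = 2 cultures per group; adjusted p = 0.00142) for Acat2. It was 2.03 ± 0.14 (adjusted p = 0.000163) for Pmvk, a 4.10-fold difference with a 95% interval of 3.26 to 5.15, the largest among the sterol genes. It was 1.20 ± 0.15 (adjusted p = 0.00198) for the brightest probe set of Idi1. The other steps of this stretch were not called. Fdps, which makes farnesyl diphosphate, reached an adjusted p of 0.0156 with a log2 fold change of 0.69, Mvk, the first mevalonate kinase, stood at 0.45 (adjusted p = 0.0611), and Mvd, the decarboxylase, at 0.34 (adjusted p = 0.225, 95% interval of the log2 fold change -0.07 to 0.75).

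Sqle, the epoxidase that commits squalene to sterols and a known control point of the pathway, read 1259, 1374 and 1900.3 in A16 and 3929, 3331 and 3676 in Colony. Tm7sf2, a sterol reductase acting just after Cyp51, read 132, 129 and 99.2 in A16 and 343, 362 and 353 in Colony. A16 biological replicate 2 was the highest A16 array for Sqle and the lowest for Tm7sf2, and neither gene overlapped between groups. Hsd17b7, a ketoreductase of the demethylation complex, read 361, 371 and 348 against 685, 772 and 743 in Colony. Dhcr7, the reductase of the last step to cholesterol, read 372, 424 and 423 against 1115, 1076 and 1148. In both genes the arrays of a group lay close together and far from those of the other group. The log2 fold change was 1.21 ± 0.19 (adjusted p = 0.00533) for Sqle, and without A16 biological replicate 1 it was 0.94, below the 2-fold limit. It was 1.63 ± 0.16 (adjusted p = 0.00087) for Tm7sf2, a 3.10-fold difference. It was 1.45 ± 0.13 (adjusted p = 0.000516) for Dhcr7, a 2.74-fold difference. Hsd17b7 lay near the limit, at 1.04 ± 0.13 (adjusted p = 0.00186), and at 0.91 by PLIER and 0.97 averaged over its probe sets it was not called.

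Most of the later sterol genes that were not called had an adjusted p under 0.05 in limma with less than a 2-fold difference. Fdft1, squalene synthase, stood at a log2 fold change of 0.79 (adjusted p = 0.00616). Lss, which folds epoxysqualene into lanosterol, stood at 0.90 (adjusted p = 0.00567) and reached 1.01, a call, without A16 biological replicate 2. Msmo1 and Nsdhl, which strip methyl groups from the ring, stood at 0.68 (adjusted p = 0.0217) and 0.67 (adjusted p = 0.0117). Cyp51, the lanosterol demethylase, stood at 0.52 with an adjusted p of 0.04996, just inside the threshold. The remaining pair act late on the ring. Ebp, the sterol isomerase, stood at 0.18 (adjusted p = 0.465), the only sterol gene whose arrays overlapped between groups in RMA, and its 95% interval of -0.18 to 0.53 leaves out a 2-fold difference. Sc5d, the desaturase before Dhcr7, stood at 0.27 (adjusted p = 0.204, interval -0.04 to 0.58) by its brightest probe set.

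**Figure D2:**
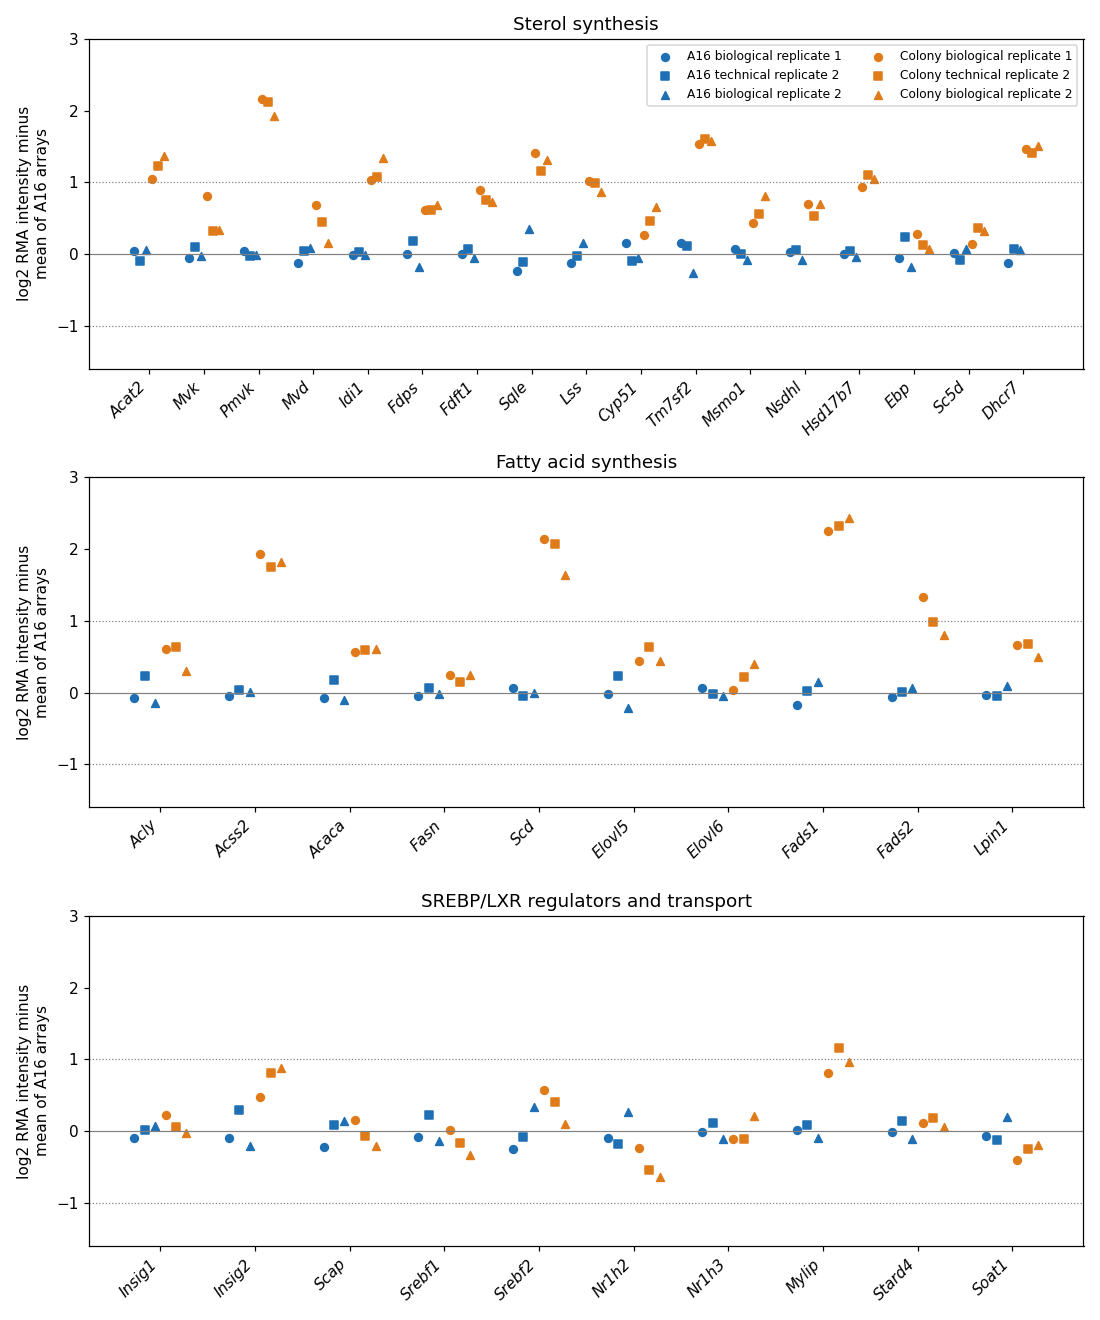
Log2 RMA intensity of each gene's brightest probe set on every array, minus the mean of the A16 arrays. Blue points are A16 and orange points Colony, shapes are the replicates, and dotted lines mark a 2-fold difference. Colony points of the sterol and fatty acid genes lie above the A16 points in 25 of 27 genes (the exceptions are Ebp and Elovl6), whereas 6 of the 10 regulators overlap. Over all genes, Colony lies above A16 on every array in 26.7% and below in 20.9%.

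Of the 10 measured genes of fatty acid synthesis, 3 were called higher, 0 lower and 7 not called, 7 had an adjusted p under 0.05, and the median log2 fold change was 0.59, or 0.68 by PLIER. All 10 were above 0 by the brightest probe set, but averaged over all probe sets the median was 0.47 and Acaca stood at -0.12, Fasn at -0.04 and Elovl5 at -0.56. The called genes supply acetyl-CoA or place double bonds. Acss2, which makes acetyl-CoA from acetate, read 359, 380.5 and 375 in A16 and 1413, 1255 and 1311 in Colony. Scd, the desaturase that makes monounsaturated chains, read 157, 146 and 150.0 in A16 and 669, 633 and 470.4 in Colony. Fads1, the desaturase of polyunsaturated chains whose promoter is shown above, read 535, 612 and 663 in A16 and 2861, 3014 and 3252 in Colony. None of these arrays overlapped, although Colony biological replicate 2 read lower than the other Colony arrays for Scd. The log2 fold change was 1.83 ± 0.13 (adjusted p = 0.00017) for Acss2, a 3.55-fold difference. It was 1.88 ± 0.18 (adjusted p = 0.000681) for Scd, a 3.67-fold difference. It was 2.33 ± 0.14 (adjusted p = 0.000112) for Fads1, a 5.02-fold difference with a 95% interval of 3.96 to 6.36, the largest of all 37 genes.

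The other genes of this list were not called. Fasn, fatty acid synthase, read 2377, 2562 and 2421 in A16 and 2908, 2721 and 2905 in Colony, so the arrays did not overlap, but the log2 fold change was 0.23 ± 0.13 (adjusted p = 0.27) with a 95% interval of -0.07 to 0.53. Acly, which cleaves citrate to acetyl-CoA, stood at 0.49 (adjusted p = 0.0765). Acaca, the carboxylase that makes malonyl-CoA, stood at 0.62 (adjusted p = 0.0164). Of the genes that lengthen or desaturate chains, Fads2, the desaturase that works with Fads1, stood at 0.97 ± 0.16 (adjusted p = 0.00623), short of a 2-fold difference, and was called at 1.01 without A16 biological replicate 2 and at 1.14 without Colony biological replicate 2. Elovl5 stood at 0.54 (adjusted p = 0.0494) and Elovl6 at 0.28 (adjusted p = 0.247), both being elongases. Lpin1, a phosphatidate phosphatase of glycerolipid synthesis, stood at 0.56 (adjusted p = 0.0291).

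None of the 10 measured regulators and transporters was called in either direction by its brightest probe set. For a list of 10 this is near the all-gene shares of 4.36% called higher and 4.75% called lower. A dimmer probe set was called lower for Soat1 (-1.98) and Scap (-1.26) and higher for Stard4 (1.09), so the absence of calls depends on the probe set. By limma 2 of the regulators had an adjusted p under 0.05, each upward, against 12.9% of all genes upward and 10.8% downward. An unadjusted p under 0.05 in limma was reached by 3. The median log2 fold change was 0.06, close to the 0.05 of all genes, and without A16 biological replicate 1 the median was -0.03. Srebf2, whose protein chiefly drives sterol genes, read 574, 647 and 868 in A16 and 1019, 904 and 736 in Colony. Srebf1, whose protein chiefly drives fatty acid genes, read 316, 389.8 and 302 in A16 and 336, 297 and 265 in Colony. Insig1, itself switched on by SREBP in textbook accounts, read 1023, 1106 and 1144 in A16 and 1279, 1133 and 1072 in Colony. The arrays of the groups overlapped for all 3 genes. Their log2 fold changes and 95% intervals were 0.21 (-0.30 to 0.72) for Srebf2, -0.17 (-0.54 to 0.20) for Srebf1 and 0.04 (-0.28 to 0.37) for Insig1, which leave out a 2-fold difference but not a smaller one. The sign of Srebf2 turned to -0.05 without A16 biological replicate 1, and that of Insig1 to -0.01 without A16 biological replicate 1 and -0.04 without Colony biological replicate 1. RNA level does not show how much SREBP protein was cut, which was not measured.

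Scap, the SREBP chaperone, stood at -0.12 (adjusted p = 0.655) by its brightest probe set, and this changed sign with other uses of the technical arrays. Insig2, the second retention protein, stood at 0.81 ± 0.16 (adjusted p = 0.0131, 1.76-fold) by its brightest probe set. Its other probe set stood at -0.07 (adjusted p = 0.809), with overlapping arrays. Mylip, an LXR target that marks lipoprotein receptors for breakdown, read 287, 303 and 265 in A16 and 499.8, 633 and 555 in Colony. Its arrays did not overlap and its adjusted p was 0.00258, but its fold of 1.99957 fell just short of 2. Without A16 biological replicate 1 it was called at a log2 fold change of 1.08, and without Colony biological replicate 2 at 1.01. The LXR receptors themselves were not called. Nr1h2 stood at -0.58 (adjusted p = 0.0617), with every Colony array below every A16 array. Nr1h3 read 25.8, 28.2 and 24.3 in A16 and 24.1, 24.0 and 30.2 in Colony, at percentile 10.7 of all probe sets by mean brightness, so its log2 fold change of 0.08 rests on dim signal and its sign turned in several alternatives. Of the genes that move and store sterol, Stard4, a cytosolic sterol carrier, read 301, 335 and 282 in A16 and 331, 346 and 319 in Colony by its brightest probe set, with overlapping arrays and a log2 fold change of 0.14 (adjusted p = 0.551), or -0.03 by PLIER. Soat1, which esterifies cholesterol for storage, stood at -0.31 (adjusted p = 0.21) by its brightest probe set, with every Colony array below every A16 array.

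**Figure D3:**
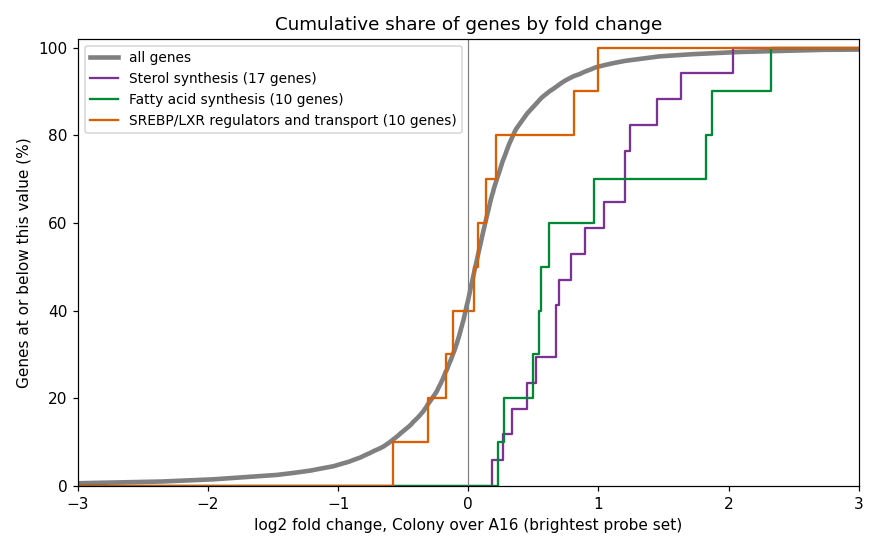
Share of genes (%) at or below each log2 fold change of Colony over A16, by the brightest probe set. The grey curve is all 14217 genes and the steps are the sterol, fatty acid and regulator lists. The sterol and fatty acid steps lie right of the grey curve over most of their range and start above 0, with medians of 0.79 and 0.59, and the regulator steps follow the grey curve, with a median of 0.06.

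Averaged over its genes, each list gave a similar level on the arrays of a group. The mean log2 intensity of the 17 sterol genes, relative to the A16 arrays, was -0.01, 0.03 and -0.01 in A16 and 0.90, 0.87 and 0.90 in Colony. For the 10 fatty acid genes it was -0.04, 0.06 and -0.02 in A16 and 1.02, 1.00 and 0.92 in Colony. For the 10 regulators it was -0.09, 0.06 and 0.03 in A16 and 0.16, 0.15 and 0.08 in Colony. In each list every Colony array, the one with the tumour label included, stood above every A16 array, by little for the regulators. RNA came from all cells of a culture, so fewer cells of a type and less RNA per cell cannot be told apart.

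Several genes had probe sets that did not move together. The 37 genes had 60 probe sets, of which 13 were called higher, 3 lower and 44 not called, and 20 genes had more than 1. For scale, the same rule picked 1242 upward and 1803 downward out of all 31042 tested on the array. The 3 lower calls are thus near the share on the whole array, whereas the 13 higher calls lie above it. Calls differed between probe sets for 8 genes, namely Elovl5, Hsd17b7, Idi1, Nsdhl, Sc5d, Scap, Soat1 and Stard4, and signs differed for 9, namely Acaca, Elovl5, Elovl6, Fasn, Insig2, Mvk, Nr1h2, Sc5d and Srebf2. Levels of different probe sets cannot be compared, but their differences between groups can be set side by side. Where in its transcript each probe set lies was not tested.

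Of the sterol genes, Idi1 had a second probe set that read 538, 635 and 694 in A16 and 632, 642 and 816 in Colony, with overlapping arrays and a log2 fold change of 0.18 (adjusted p = 0.535). The second probe set of Nsdhl read 164, 193 and 164 in A16 and 455, 467 and 400.2 in Colony and was called at 1.33 ± 0.14 (adjusted p = 0.00105). One dimmer probe set of Sc5d read 310.3, 347 and 294 in A16 and 713, 830.1 and 853 in Colony and was called at 1.38 ± 0.14 (adjusted p = 0.000846). The sterol calls therefore depended on the probe set in both directions. The last Sc5d probe set stood at -0.30 (adjusted p = 0.199) and the second of Cyp51 at 0.95 (adjusted p = 0.00638). The other probe sets of Mvk stood at -0.54 (adjusted p = 0.0271) and -0.33 (adjusted p = 0.131).

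Among the others, 1 dimmer probe set of Stard4 read 206, 222 and 194 in A16 and 391, 409 and 469.9 in Colony and was called at 1.09 ± 0.15 (adjusted p = 0.00268), and the third stood at 0.49 (adjusted p = 0.0417). The second probe set of Soat1 read 1148, 861 and 1539 in A16 and 392, 311 and 280.0 in Colony and was called lower at -1.98 ± 0.23 (adjusted p = 0.0015). The second of Scap read 159, 101 and 268 in A16 and 86.3, 73.1 and 73.9 in Colony and was called lower at -1.26 ± 0.32 (adjusted p = 0.0311), with a wide spread in A16. These were the transport, storage and chaperone genes whose brightest probe set had not been called. Elovl5 alone had probe sets past the adjusted p in opposite directions. Its second probe set read 534, 496 and 747 in A16 and 213, 233 and 171 in Colony and was called lower at -1.67 ± 0.22 (adjusted p = 0.00247). The dimmer probe set of Acaca stood at -0.85 (adjusted p = 0.0581) and that of Fasn at -0.31 (adjusted p = 0.303).

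**Figure D4:**
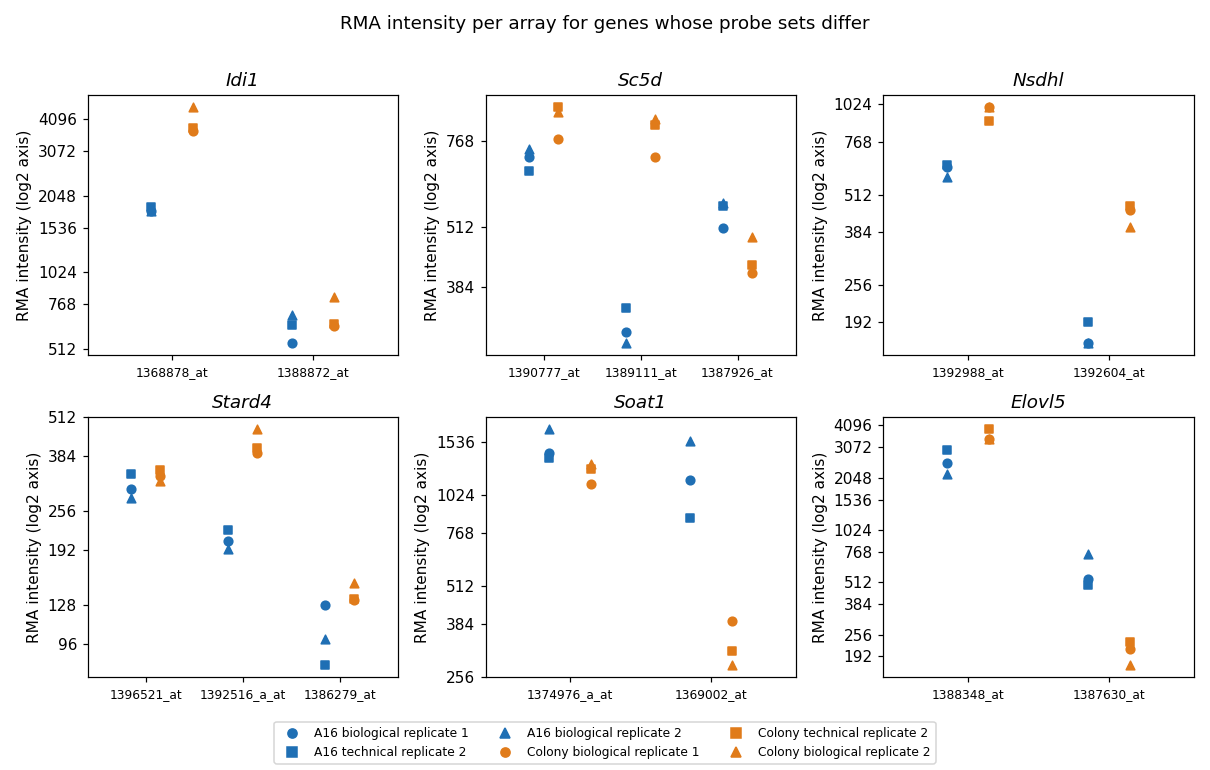
RMA intensity (log2 axis) on every array for each probe set of 6 genes whose probe sets differ in their calls, the brightest probe set first. Blue is A16 and orange Colony, shapes are the replicates, and each panel has its own axis. Colony lies above A16 in 1 probe set of Elovl5 and below it in the other, and for Sc5d, Nsdhl and Stard4 a dimmer probe set shows the wider gap between groups.

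A further 48 genes of the same pathways were listed by role, and 42 were measured. Of these, 1 was called higher, 1 lower and 40 not called, against 4.36% higher and 4.75% lower of all genes. An adjusted p under 0.05 was reached upward by 9 and downward by 2, against 12.9% and 10.8% of all genes. Their median log2 fold change was 0.14, beside 0.05 for all genes. The called ones were Scd2 and Lpin3. Scd2, a close paralogue of Scd, read 44.4, 43.6 and 72.0 in A16 and 1077, 1165 and 1183 in Colony by its brightest probe set. Every Colony array was far above every A16 array, with a log2 fold change of 4.35 ± 0.23 (adjusted p = 6.2e-05), a 20.4-fold difference that rests on dim signal in A16 and was 12.9-fold by PLIER. Its other 3 probe sets were dimmer and stood at 1.15 (adjusted p = 0.00884), 0.63 (adjusted p = 0.0131) and 0.46 (adjusted p = 0.105), the first of them called. Whether probes of Scd and Scd2 bind each other's RNA was not tested. Lpin3, a relative of Lpin1, read 523, 585 and 560.2 in A16 and 251, 223 and 246 in Colony, a log2 fold change of -1.21 ± 0.13 (adjusted p = 0.00101). Of the other genes that process or turn over SREBP and its partners, 5 of 6 were measured and none was called, with a median log2 fold change of 0.65. Mbtps1 and Mbtps2, the proteases that cut SREBP in the Golgi, stood at -0.56 (adjusted p = 0.0308) and 0.66 (adjusted p = 0.0417). Rnf139, a ubiquitin ligase of the endoplasmic reticulum, stood at 0.85 (adjusted p = 0.0053), Erlin1, which forms a complex with Erlin2 there, at 0.65 (adjusted p = 0.0238), and Erlin2 at 0.36 (adjusted p = 0.111). For every one of these but Mbtps1, where the order was the opposite, every Colony array lay above every A16 array. Over all genes such an order was seen upward in 26.7% and downward in 20.9%.

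Markers of the labelled cell type were checked beside these results. Of 12 fibroblast markers, 10 were brighter than the median probe set, Dcn and Lum were dim, and Vim and S100a4 read high on all arrays. In Colony 5 were called lower, namely the collagens Col1a1, Col3a1 and Col5a1, Thy1 and the matrix protein Fn1, and 0 higher. Over all genes 4.75% were called lower and 4.36% higher. Every Colony array lay below every A16 array for 7 fibroblast markers and above for 3. Those above were Pdgfra, at 0.55 (adjusted p = 0.0232), and Vim and S100a4, each at 0.16. The summed intensity of the list was 86502 to 98463 in A16 and 59012 to 63996 in Colony. Of 8 measured adipocyte markers 1 was called, Cfd, lower at -1.57, and Adipoq, Plin1, Fabp4, Lep and Cidec lay among the dimmest 25% of probe sets. The adipocyte sum was 974 to 1127 in A16 and 945 to 1146 in Colony. Pnpla2 was its largest part, at 399 to 560 in A16 and 514 to 701 in Colony. Of 6 epithelial markers Krt8 alone was called, higher at 2.13, with Epcam and Krt18 dim. Cdh1, also dim, stood at 0.74 (adjusted p = 0.00979) and was not called. The epithelial sum was 909 to 1014 in A16 and 3154 to 3913 in Colony. Krt8 made up most of it, at 669 to 794 in A16 and 2891 to 3668 in Colony. No macrophage or leukocyte marker of 8 and no endothelial marker of 4 measured was called, with sums of 1169 to 1314 and 140 to 152 in A16 and of 846 to 1020 and 155 to 189 in Colony. Most of the macrophage and leukocyte sum was Cd14, at 891 to 1020 in A16 and 534 to 697 in Colony. The fall of the called fibroblast markers and the rise of Krt8 moved with the lipid genes, and their part in the result was not tested.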

How the data were processed

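RNA of F111 A16 and Colony cells was hybridised by the authors to Affymetrix rat expression arrays, 3 per group, read with GeneChip Operating Software and summarised in Avadis with RMA and with PLIER. Both summaries of each array were deposited as linear intensity values. For RMA and PLIER a version was not given in the sources used here. The plan assumed log2 values, but the deposited RMA values were linear, so log2 of the intensity was taken with nothing added.

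The array named technical replicate 2 carries no biological number and was averaged on log2 with biological replicate 1 of its group, which left 2 cultures per group. The table holds 31099 probe sets; without its 57 controls, 31042 entered the test without a filter in R 4.3.3, with the lmFit and eBayes functions of limma 3.58.1 and a prior of 4.76 degrees of freedom. The Benjamini-Hochberg adjustment ran over all 31042, and every adjusted p printed is from this limma fit unless another test is named. Probe sets were called where the adjusted p was under 0.05 and the fold over 2. Symbols came from the array annotation and were brought up to date by gene identifier for 20758 probe sets. Of the tested probe sets, 20826 (67.1%) had 1 symbol, 436 several and 9780 none. Each of the resulting 14217 genes was read from its brightest probe set, by mean log2 RMA intensity on the 6 arrays.

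The members and lists were chosen with earlier results of these data known. Every measured member is named. Intensities on every array are given for called members and for Sqle, Fasn, Scd, Insig1, Srebf1, Srebf2, Nr1h3 and Stard4, as well as for Mylip, which lay at the limit of a call. They are also given for a dimmer probe set of each member whose probe sets differed in their calls, except Hsd17b7. Of the other pathway genes and the markers of cell types the called ones are named. Some other genes of the pathway are not reported here. Promoters were read from RefSeq (GRCr8). The fit was tested on simulated data. Alternatives were PLIER as log2(value + 16), other uses of the technical arrays, the replicate block, another scaling, a filter on dim probe sets, the mean of all probe sets of a gene, an unmoderated test per probe set and leaving out each culture. Batches of arrays could not be tested, as neither slide nor scan date is labelled. The precision is limited by the number of cultures. Python 3.11.15 was used for summaries and matplotlib 3.10.9 for figures.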

Additional observations from a re-analysis of the deposited data

How the results depend on the processing

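All 10 called genes had a log2 fold change above 0 in every alternative tried, and calls were lost for Hsd17b7 with PLIER and with the mean of all probe sets, for Idi1 with that mean (0.69), for Sqle without A16 replicate 1, and for all 10 with a plain t-test per probe set. Of 554 log2 fold changes of the 37 genes over 15 alternatives, 513 kept their direction and side of the threshold, 14 lost and 12 gained a call, and 15 turned sign.

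The plain t-test with the same adjustment called 0 probe sets higher and 0 lower, and 0 members, sterol, fatty acid and other pathway genes in either direction. At an unadjusted p under 0.05 and a fold over 2 it passed 1070 probe sets upward and 1313 downward, where limma passed 1256 and 1880. With the mean of all probe sets of a gene, 1 member, the regulator Soat1 (-1.15), was called lower. The median log2 fold change was then 0.73 for sterol and 0.47 for fatty acid genes, and Mvk stood at -0.14, Acaca at -0.12, Fasn at -0.0438 and Elovl5 at -0.56. With PLIER the fatty acid median was 0.68 and Stard4 stood at -0.0296. With the technical arrays left out the sterol median was 0.84 and Scap stood at 0.0169. With them averaged with replicate 2, Scap stood at 0.0646 and Nr1h3 at -0.0283, and with 6 separate arrays Nr1h3 stood at -0.0045. The cause of these shifts was not tested.

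Leaving out each culture in turn gave 10 to 12 members called higher, and medians of 0.74 to 0.84 for sterol, 0.56 to 0.70 for fatty acid and -0.0280 to 0.0676 for regulator genes. Of the regulators 0 to 1 was called higher, and of other pathway genes 1 to 2 higher and 1 to 3 lower. Log2 fold changes ran from -0.0417 to 0.126 for Insig1, -0.0459 to 0.464 for Srebf2, -0.0881 to 0.240 for Nr1h3 and -0.248 to 0.00933 for Scap. Each such fit has 1 culture in a group, assumed to vary like the other group.

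With the replicate block, 10 members were called higher and 0 lower, and 1254 and 1867 of all probe sets, and no member's call changed. The deviations of same-numbered cultures correlated at -0.15, which cannot settle whether the cultures were paired, and the labels do not say. With the crossed replicate block, chosen after seeing the data, 10 members, 1256 and 1879 probe sets and 2 other pathway genes lower were called. The number of cultures and, for Nr1h3, dim signal limit what could be detected.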
